A study of Homo sapiens with 11 samples.

Results

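The glutathione S-transferase (GST) family was examined in the human lung adenocarcinoma cell line A549 exposed to cigarette smoke condensate (CSC) or to its vehicle. The 10 genes followed, of 23609 gene symbols in the deposited tables, were the cytosolic enzymes GSTP1, GSTA1, GSTA4, GSTM3, GSTM4 and GSTO1, the mitochondrial and peroxisomal GSTK1, and the membrane-bound MGST1, MGST2 and MGST3. They were matched by gene symbol, each stood at 1 locus, and the rule that picks them uses no measured value. Even so, the members and the gene lists below were chosen with earlier results of these data known. The 4 groups were DMSO for 48 hours (2 libraries, numbered 2 and 3), CSC for 48 hours (3 libraries), DMSO for 2 weeks (3 libraries) and CSC for 2 weeks (3 libraries). The labels give the CSC dose as 20 uM at both durations, without saying what a molar amount of a mixture refers to. All libraries came from total RNA of the same line, and the labels do not say whether replicates were grown apart. The p-values therefore measure the spread between these libraries, which may be technical.

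GSTs join the thiol of the tripeptide glutathione to electrophilic compounds, among them the unsaturated aldehydes and activated aromatic hydrocarbons of tobacco smoke, and the conjugates are pumped out of the cell and trimmed to mercapturic acids. The cytosolic enzymes work as dimers and are sorted into classes named by Greek letters (pi, alpha, mu, omega), whereas the MGST proteins sit in membranes and belong to the MAPEG family together with enzymes of prostaglandin and leukotriene synthesis. Many GST and glutathione synthesis genes are targets of NRF2, a transcription factor that binds antioxidant response elements and is held in check by KEAP1. A549 cells are known to carry a KEAP1 mutation, and NRF2 is active in them without a stimulus.

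Short stretches of promoter sequence show how the members differ upstream of their genes. RefSeq promoter windows (build GRCh38.p14, the 250 bases before a start site) were found for 9 of the 10 genes, in 11 windows. The core of the antioxidant response element, TGACNNNGC on either strand, matched in GSTP1, GSTO1 and GSTA4, against 10.9% of the 35116 windows of all genes. The matches are shown in capitals with up to 10 bases around them, 5′ to 3′ on the strand of the gene, with their distance to the start counted from the first base of the match.
GSTP1, chr11:67583736-67583764, plus strand, 66 bases before the start: gccggcgccgTGACTCAGCactggggcgg
GSTO1, chr10:104254656-104254684, plus strand, 226 bases before the start: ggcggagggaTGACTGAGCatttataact
GSTO1, chr10:104254721-104254749, plus strand, 161 bases before the start: cgagatgcttTGACACAGCcccttaagat
GSTA4, chr6:52995285-52995303, minus strand, 9 bases before the start: ccgggaccgcTGACCTGGC

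The GSTP1 match overlaps a match to TGANTCA, the AP-1 motif, which 6.57% of all windows hold. GCGTG, the core of the element that the aryl hydrocarbon receptor binds, matched in GSTM3, GSTM4 and MGST3, against 32.2% of all windows. For MGST1, the member called after CSC, none of the 3 motifs matched in any of its 3 windows. Its most upstream window is shown whole for comparison, with nothing in capitals.
MGST1, chr12:16346865-16347114, plus strand: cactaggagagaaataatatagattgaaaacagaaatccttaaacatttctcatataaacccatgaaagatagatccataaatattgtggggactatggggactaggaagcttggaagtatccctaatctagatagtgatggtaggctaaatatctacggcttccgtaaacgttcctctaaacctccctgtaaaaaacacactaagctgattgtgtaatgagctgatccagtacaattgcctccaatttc

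A match is a description of letters, and the absence of a match says only that these letters are not in the window.

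GSTP1 and MGST1 made up most of the GST message in every library. Levels are given in FPKM (fragments per kilobase of transcript, relative to the mapped fragments of a library), the deposited unit, which is per length and so can be set side by side between genes. Together the 2 genes held between 79.7% and 84.4% of the summed FPKM of the 10 genes, and the 10 genes held between 0.147% and 0.232% of all FPKM in a library. GSTP1, the pi-class enzyme that predominates in lung and in many tumours (hg19 chromosome 11, 67351066 to 67354124), had group means between 246 and 401 FPKM. Its FPKM lay above the upper bound that the deposited tables give for it in all 11 libraries, which no other member showed. MGST1, an enzyme of the endoplasmic reticulum and outer mitochondrial membrane that also reduces lipid peroxides (chromosome 12, 16500076 to 16530123), had group means between 192 and 397 FPKM. GSTP1 was the higher of the 2 in CSC 48 hours and CSC 2 weeks without overlap of their FPKM, and the library ranges of the 2 genes overlapped in both vehicle groups. At its upper bounds GSTP1 would range from 200.4 to 244 in CSC 48 hours and from 285 to 443 in CSC 2 weeks, which overlaps MGST1 in both.

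The order of the members below these 2 was nearly fixed. GSTO1, the omega-class enzyme that acts more as a thiol transferase than as a conjugating enzyme (chromosome 10, 106013952 to 106027222), came next, at 35.2 to 79.6 FPKM over the 11 libraries. GSTK1 (chromosome 7, 142960522 to 142966222) ran from 23.3 to 42.3 FPKM. MGST3, a membrane glutathione peroxidase (chromosome 1, 165600110 to 165625372), and MGST2, which can form leukotriene conjugates (chromosome 4, 140586922 to 140661899), followed at 16.3 to 32.9 and 11.8 to 27.2 FPKM. The library ranges of these neighbours overlapped in each group except CSC 48 hours. Within libraries, MGST2 was above MGST3 in 2 of 2 DMSO 48 hours libraries and MGST3 above MGST2 in 3 of 3 DMSO 2 weeks, 3 of 3 CSC 48 hours and 2 of 3 CSC 2 weeks libraries.

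The remaining 4 members stayed under 10 FPKM in every library. GSTA4, which detoxifies the lipid peroxidation product hydroxynonenal (chromosome 6, 52842746 to 52860178), lay between 1.93 and 7.23 FPKM. The mu-class genes GSTM4 (chromosome 1, 110198698 to 110208123) and GSTM3 (chromosome 1, 110276554 to 110283660) lay at 1.99 to 3.95 and 0.887 to 2.01 FPKM. GSTA1, an alpha-class enzyme best known from liver (chromosome 6, 52656178 to 52668664), was listed at 0 in 9 of 11 libraries, at 0.124 FPKM in CSC 48 hours replicate 1 and at 0.107 in CSC 2 weeks replicate 1. It did not reach the minimum for testing, an FPKM of 1 in 2 libraries, which the other 9 members passed. The ranges of GSTA4 and GSTM4 overlapped in DMSO 48 hours and those of GSTM4 and GSTM3 in no group. The mu-class genes form a cluster of related sequence on chromosome 1, between which reads can be split, and GSTM3, GSTK1 and MGST2 overlap genes on the other strand (GSTM5 and a long non-coding RNA, TMEM139-AS1, and MAML3 with 2 small genes). The strand setting of the quantification is not given in the sources used here, so values of these members are uncertain to that extent.

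**Figure D1:**
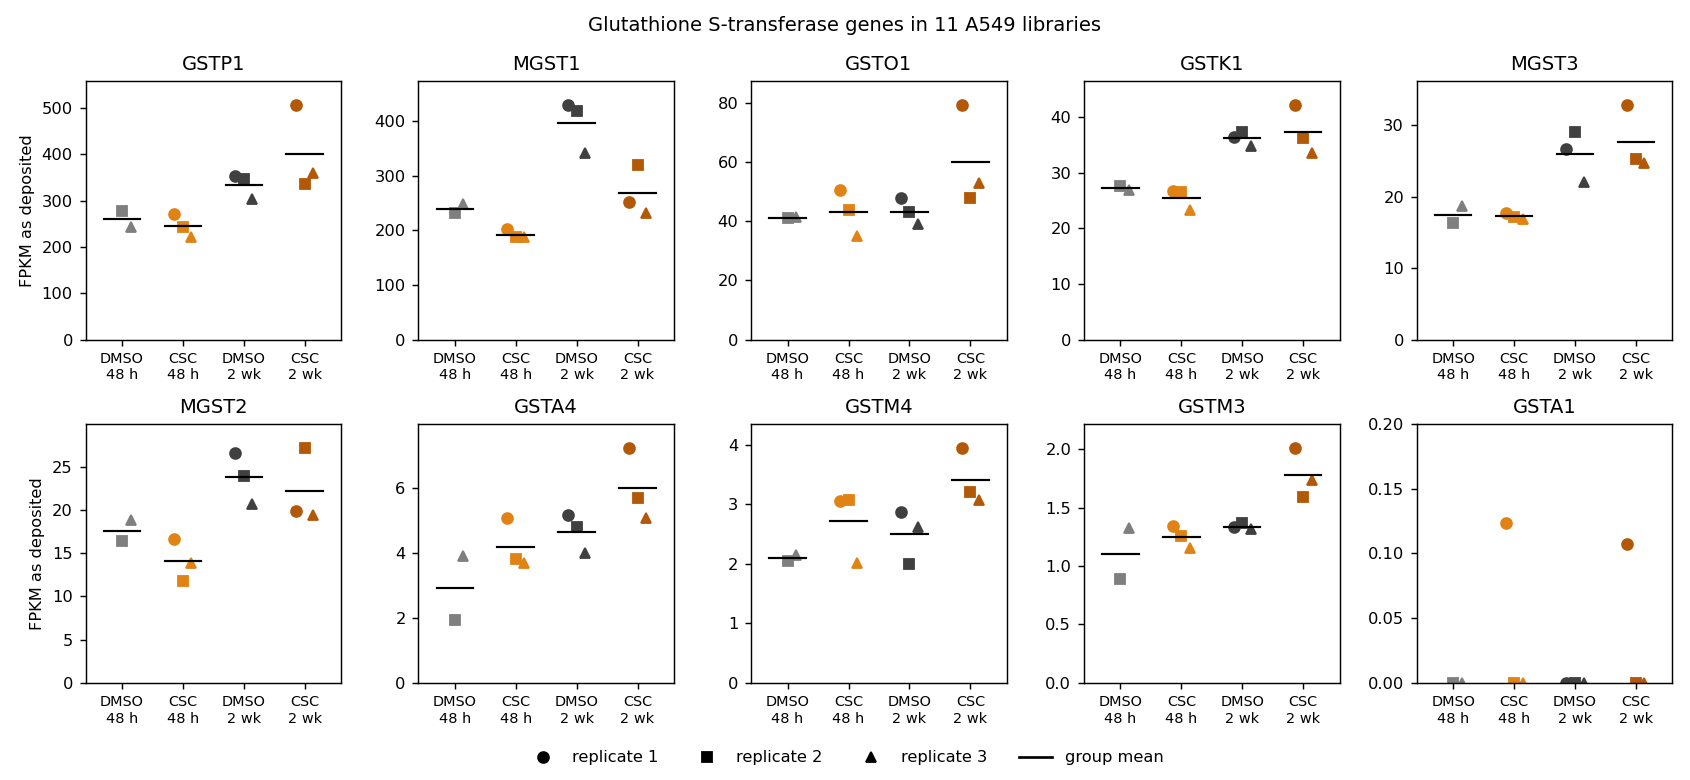
Deposited FPKM of each of the 10 genes in the 11 libraries (y axis, linear and from 0; the scale differs between panels), by group on the x axis; symbols mark the replicate number and bars the group mean (not drawn for GSTA1, which is listed at 0 in 9 libraries). MGST1 is the panel in which all 3 CSC 2 weeks libraries (232 to 320 FPKM) lie below all 3 DMSO 2 weeks libraries (341 to 431).

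At 2 weeks MGST1 was lower in CSC than in DMSO, and no other member passed the test. The group mean of MGST1 was higher at 2 weeks than at 48 hours in both, 397 against 239 FPKM in DMSO and 268 against 192 in CSC. Falls and rises at 2 weeks of CSC are relative to DMSO at 2 weeks. MGST1 stood at 431, 419 and 341 FPKM in the DMSO replicates 1, 2 and 3 and at 252, 320 and 232 FPKM in the CSC replicates 1, 2 and 3. All 3 CSC libraries were below all 3 DMSO libraries, and CSC replicate 2 came closest to them. The log2 change was -0.57 ± 0.14 (SE; 95% interval -0.88 to -0.26; limma, Benjamini-Hochberg adjusted p = 0.0373 over 12506 genes), or 0.672 times the vehicle level (0.543 to 0.832). Of the 9 tested members 1 fell and 0 rose, where 2.4% of all genes tested fell and 3.01% rose, and 3 members (MGST1, GSTO1 and GSTM4) had an unadjusted p under 0.05, as did 24.6% of all genes. In bulk RNA, fewer cells that make a transcript and less of it per cell cannot be told apart.

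The call for MGST1 rested on several libraries although its direction did not. It fell short of the threshold without CSC 2 weeks replicate 1 (-0.54, adjusted p = 0.112) or replicate 3 (-0.48, 0.154) and without DMSO 2 weeks replicate 1 (0.128) or replicate 2 (0.134). It also did so narrowly without CSC 48 hours replicate 1 (0.0532) or DMSO 48 hours replicate 2 (0.0550) or replicate 3 (0.0549), libraries that enter only through the shared estimate of spread. Without CSC 2 weeks replicate 2 the change was -0.71 (0.00802). With the libraries scaled by median of ratios the change was -0.67 (0.0192), and with a common sum of FPKM -0.72 (0.0139).

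GSTO1, GSTM4 and GSTM3 had higher values in all 3 CSC 2 weeks libraries than in any DMSO 2 weeks library, without passing the test. Such separation upward was found in 20.3% of all genes tested, and separation downward, as for MGST1, in 9.84%. GSTO1 was at 47.9, 43.1 and 39.0 FPKM in DMSO replicates 1, 2 and 3 and at 79.6, 47.9 and 52.9 in CSC replicates 1, 2 and 3. The lowest CSC library lay only just above the highest DMSO library, and CSC replicate 1 stood well above the other two. The log2 change was 0.44 ± 0.18 (adjusted p = 0.161), and 0.22 (0.519) without CSC replicate 1. GSTM4 had a change of 0.39 ± 0.17 (adjusted p = 0.179) and GSTM3 of 0.31 ± 0.15 (0.233).

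GSTP1 did not separate the groups at 2 weeks. It was at 353, 346 and 303 FPKM in DMSO replicates 1, 2 and 3 and at 507, 336 and 359 in CSC replicates 1, 2 and 3. CSC replicate 1 was high and the other two lay within or next to the DMSO range. The log2 change was 0.24 ± 0.16 (95% interval -0.11 to 0.59, adjusted p = 0.365), and 0.06 without CSC replicate 1, the library with the highest sum of FPKM. GSTA4 had a change of 0.33 ± 0.21 (adjusted p = 0.344). The values for MGST3, GSTK1 and MGST2 were 0.09, 0.04 and -0.11, with adjusted p between 0.706 and 0.845.

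Positive changes were found in 7 of the 9 tested members, with a median of 0.24 on the log2 scale against 0.09 over all genes, 65.1% of which were positive. That common shift depended on the scaling of the libraries: the median over all genes was 0.01 with median of ratios, -0.03 with a common sum and 0.02 with quantile normalization, and the members' medians were then 0.15, 0.10 and -0.01. Over all genes, 376 rose and 300 fell as deposited, 289 and 460 with median of ratios, 264 and 487 with a common sum, and 325 and 441 with quantile normalization. Under quantile normalization the change of GSTP1 was -0.06, while GSTO1, GSTM4, GSTM3 and GSTA4 kept positive values under these 3 scalings.

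**Figure D2:**
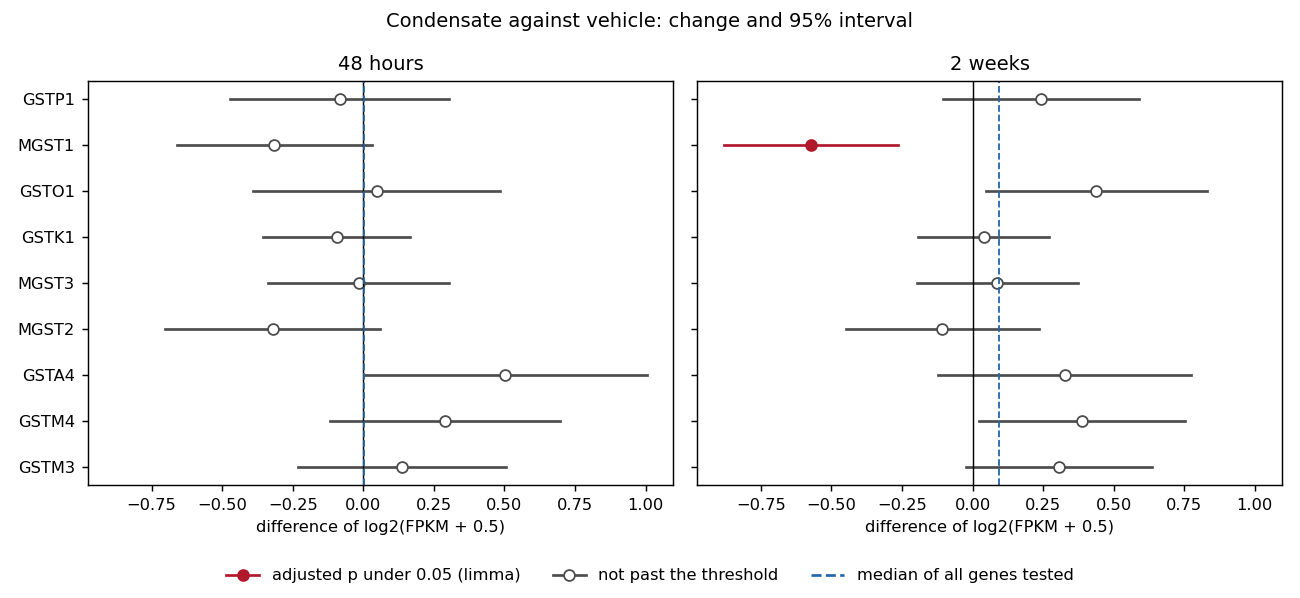
Change from DMSO to CSC at 48 hours (left) and 2 weeks (right) for the 9 tested genes, as the difference of log2(FPKM + 0.5) with its 95% interval from limma; filled red points passed an adjusted p of 0.05 and dashed lines mark the median of all genes. MGST1 at 2 weeks (-0.57) is the filled point, and every interval at 48 hours except that of GSTA4 spans 0.

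Because FPKM are relative to a library's total, the make-up of the GST message was also compared within libraries, where scaling between libraries has no effect. MGST1 held 46.3%, 46.2% and 44.4% of the summed FPKM of the 10 genes in DMSO 2 weeks replicates 1, 2 and 3, and 26.6%, 39.8% and 31.7% in CSC 2 weeks replicates 1, 2 and 3. The groups did not overlap, and the CSC libraries were spread more widely. This measure was added after the data were seen, and a share also falls where other members are higher. CSC 2 weeks replicate 1 had the lowest share with MGST1 at 252 and GSTP1 at 507 FPKM. In replicate 3 of that group they were at 232 and 359. The means were 45.6% ± 1.1 and 32.7% ± 6.7 (SD, n = 3 each), an exact two-sided permutation test gave p = 0.1, and 3 libraries against 3 can give no smaller p. At 48 hours the means were 39.3% ± 2.4 in DMSO (n = 2) and 35.3% ± 1.6 in CSC (n = 3), with an exact permutation p of 0.2, again the smallest possible. Adjusted over the 4 comparisons of this share, the exact permutation p was 0.267 for both. MGST1 exceeded GSTP1 in 3 of 3 DMSO 2 weeks libraries, with ratios of 1.22, 1.21 and 1.13, and fell below it in 3 of 3 CSC 2 weeks libraries, with ratios of 0.497, 0.952 and 0.646. Against the upper bound deposited for GSTP1, the ratios were 1.40, 1.37 and 1.29 in DMSO and 0.569, 1.12 and 0.732 in CSC, so that MGST1 lay above that bound in CSC 2 weeks replicate 2.

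**Figure D3:**
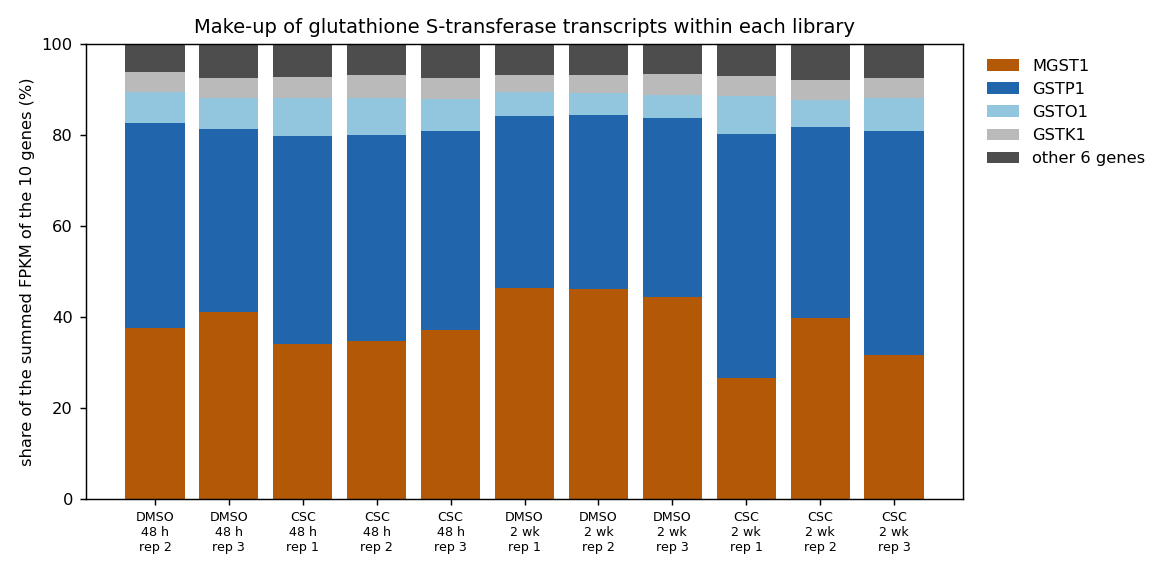
Share of each gene in the summed FPKM of the 10 GST genes (y axis, percent) in each of the 11 libraries (x axis), stacked to 100%. The MGST1 segment is 44.4% to 46.3% in the DMSO 2 weeks libraries and 26.6% to 39.8% in the CSC 2 weeks libraries.

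After 48 hours of CSC no member passed the test. The same held for nearly all genes, of which 0.288% were called in either direction. Changes ran from -0.32 to 0.50 with a median of -0.02, and the lowest limma adjusted p was 0.587. An unadjusted p under 0.05 was found for 8.49% of all genes and for 1 member. That member was GSTA4, at 1.93 and 3.91 FPKM in DMSO replicates 2 and 3 and at 5.06, 3.81 and 3.67 in CSC replicates 1, 2 and 3. The DMSO libraries differed from each other as much as the groups did. Its change of 0.50 ± 0.23 became 0.93 without DMSO 48 hours replicate 3 and 0.07 without DMSO 48 hours replicate 2.

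MGST1 was at 231 and 248 FPKM in DMSO 48 hours replicates 2 and 3 and at 203, 187 and 187 in CSC 48 hours replicates 1, 2 and 3. All CSC libraries lay below both DMSO libraries, as in 11.8% of all genes tested, and GSTK1 was the other member with such a gap downward. The change of MGST1 was -0.32 ± 0.16 (adjusted p = 0.646) and that of GSTK1 -0.09 ± 0.12 (0.916). MGST2, at 16.4 and 18.8 FPKM in DMSO and 16.6, 11.8 and 13.9 in CSC, had a change of -0.32 ± 0.18 (0.699). GSTP1 was at 277 and 244 FPKM in DMSO replicates 2 and 3 and at 272, 244 and 222 in CSC, overlapping ranges with a change of -0.08 ± 0.18. With 2 vehicle libraries at this time, the 95% interval of the GSTP1 change ran from -0.47 to 0.31, which leaves changes of either sign possible.

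The response to CSC was not shown to differ between the durations for any member. The difference of the changes, 2 weeks minus 48 hours, ran from -0.26 (MGST1, 95% interval -0.72 to 0.20) to 0.39 (GSTO1, -0.20 to 0.98), with adjusted p of 0.770 or more and 0 members at an unadjusted p under 0.05. Over all genes 0.04% were called in this comparison.

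Under CSC, 5 of 9 tested members rose from 48 hours to 2 weeks, against 12.3% of all genes tested, a count that depended on how libraries were scaled. The comparisons between durations use the same libraries as those above. The 5 members were GSTP1 (0.68 ± 0.16, adjusted p = 0.0246), GSTK1 (0.54 ± 0.11, 0.0171), MGST1 (0.46 ± 0.14, 0.0490), MGST2 (0.63 ± 0.16, 0.0283) and MGST3 (0.65 ± 0.13, 0.0176). MGST3 was at 17.7, 17.2 and 16.9 FPKM in CSC 48 hours replicates 1, 2 and 3 and at 32.9, 25.3 and 24.8 in CSC 2 weeks replicates 1, 2 and 3. GSTK1 went from 26.7, 26.6 and 23.3 to 42.3, 36.3 and 33.7 FPKM over the same libraries. Neither gene had overlapping ranges.

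The sums of FPKM rose with time as well, from 338507 to 360969 per library at 48 hours to 363873 to 484053 at 2 weeks. The median change over all genes under CSC was 0.19, and 0.47 over the members. With median of ratios those medians were 0.02 and 0.31, and 1 member, MGST3, passed (0.48, adjusted p = 0.0434). With a common sum they were -0.09 and 0.19 and 0 members passed, although all 9 changes stayed positive. Over all genes, 1536 rose and 172 fell as deposited, 186 and 243 with median of ratios, 85 and 455 with a common sum, and 123 and 201 with quantile normalization. Without CSC 2 weeks replicate 1, 0 members passed (114 genes rose in all), and without CSC 48 hours replicate 2 only GSTK1 and MGST3 did. MGST1 lost its call in each of the 11 fits without 1 library.

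In the vehicle all 9 tested members had a positive change from 48 hours to 2 weeks, and none passed the test. The libraries of GSTP1, GSTA4, GSTK1, MGST1, MGST2 and MGST3 did not overlap between the durations, 6 members, against 28.8% of all genes tested with such a gap upward. Under CSC the 6 were GSTP1, GSTM3, GSTK1, MGST1, MGST2 and MGST3, against 28.4% of all genes. MGST1 had the largest change of the members, 0.72 ± 0.16 (95% interval 0.38 to 1.07, adjusted p = 0.0641), followed by GSTA4 (0.65 ± 0.23, 0.246) and MGST3 (0.55 ± 0.15, 0.117). An unadjusted p under 0.05 was found for 5 of the 9 and for 12.8% of all genes, the median was 0.40 against 0.09 over all genes, and 0.656% of all genes rose at the adjusted threshold. MGST1 passed without CSC 2 weeks replicate 2 (0.0301) or CSC 48 hours replicate 3 (0.0457). In a limma fit of the 5 vehicle libraries alone MGST1 (0.0186), GSTK1 (0.0442) and MGST3 (0.0482) passed. That fit called 409 of 12108 genes tested as higher. GSTO1 had a change of 0.06 ± 0.20 in the vehicle (95% interval -0.38 to 0.50) that was -0.03 with median of ratios and -0.06 with a common sum.

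**Figure D4:**
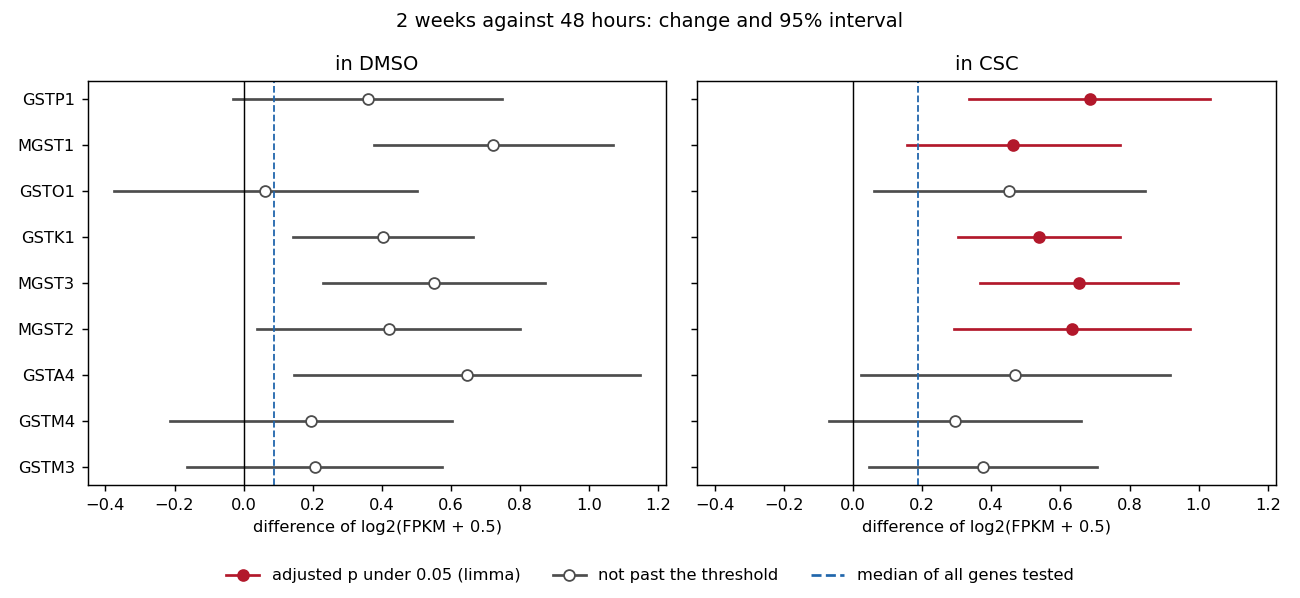
Change from 48 hours to 2 weeks in DMSO (left) and CSC (right) for the 9 tested genes, as the difference of log2(FPKM + 0.5) with its 95% interval from limma; filled red points passed an adjusted p of 0.05 and dashed lines mark the median of all genes (0.09 and 0.19). Under CSC 5 points are filled and in DMSO none, and MGST1 is the rightmost point in DMSO.

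Of 17 other glutathione transferases, MAPEG enzymes and related enzymes, 7 reached the minimum for testing. GSTT1, GSTA3 and GSTA5 were listed at 0 in 11 of 11 libraries, and GSTM1 did not exceed 0.225 FPKM. At 2 weeks of CSC, 2 of the 7 rose and 0 fell, with a median of 0.41 (over all genes 3.01% rose and 2.4% fell, with a median of 0.09). GSTO2, the second omega-class gene, went from 0.207 ± 0.210 to 1.00 ± 0.32 FPKM (SD, n = 3 each; 1.11 ± 0.28, adjusted p = 0.0393), a level near the minimum, and was called in 4 of the 9 fits without 1 library that tested it. GSTO2 reached the minimum for testing only in CSC 2 weeks, the group in which it was called higher. GSTM2, whose change of 0.41 was the median, reached it only in CSC libraries. The 2 of 7 and the median therefore depend on the groups in which these genes were high and are a description only. PTGES2, a prostaglandin E synthase that is not a MAPEG enzyme, went from 16.4 ± 1.3 to 24.8 ± 5.6 FPKM (0.57 ± 0.15, 0.0462). Its change was 0.39 (0.151) without CSC 2 weeks replicate 1, and it was called in 4 of 11 such fits.

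Of the 10 genes that supply glutathione, 4 rose and 0 fell at 2 weeks of CSC, with a median of 0.30, where 3.01% of all genes rose, 2.4% fell and the median was 0.09. GCLC and GCLM encode the subunits of glutamate-cysteine ligase, which makes the rate-limiting step of glutathione synthesis. GCLC went from 44.7 ± 5.2 to 66.3 ± 4.2 FPKM (0.57 ± 0.14, adjusted p = 0.0405) and GCLM from 34.2 ± 4.1 to 47.4 ± 4.5 (0.47 ± 0.12, 0.0474). GSR, which regenerates reduced glutathione, went from 76.9 ± 5.6 to 112.5 ± 18.0 (0.54 ± 0.13, 0.0316), and CBS, which starts the route from homocysteine to cysteine, from 5.91 ± 0.10 to 15.1 ± 2.4 (1.28 ± 0.26, 0.0160). SLC7A11, the cystine importer, stood at 51.8 FPKM in DMSO and 49.5 in CSC. Each of the 4 calls was lost without CSC 2 weeks replicate 1 (adjusted p between 0.0714 and 0.170). The same held without CSC 2 weeks replicate 3 and without each of the DMSO 2 weeks replicates 1, 2 and 3. The calls of GCLC and GCLM were also lost with median of ratios or a common sum. Of the 11 fits without 1 library, 3 called GCLC, 2 called GCLM, 6 called GSR and 6 called CBS. The 4 changes kept their sign in all fits.

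Of the genes for export of conjugates and their processing to mercapturates, 15 of 22 were tested at 2 weeks of CSC. There were 1 higher and 1 lower, where 3.01% of all genes rose and 2.4% fell. The median was 0.14, near the 0.09 of all genes. ANPEP, an aminopeptidase that trims the conjugates, went from 1.47 ± 0.18 to 3.17 ± 0.69 FPKM (0.88 ± 0.15, adjusted p = 0.00660) and was called in all 11 fits without 1 library. GGT5, a gamma-glutamyl transferase family member, went from 1.14 ± 0.11 to 0.354 ± 0.066 FPKM (-0.95 ± 0.22, 0.0287; called in 6 of 11 such fits). It reached the minimum for testing only in DMSO 2 weeks, the group in which it was high, and its level lay near that minimum. The count of 1 lower therefore depends on that group and is a description only. The efflux pumps ABCC1 and ABCC2 were abundant, at 80.1 and 91.9 FPKM in CSC 2 weeks, and did not pass. Among 8 regulators 0 rose and 2 fell, against 3.01% and 2.4% of all genes. MAFK, a small MAF partner of NRF2, went from 21.5 ± 2.3 to 9.99 ± 2.42 FPKM (-1.09 ± 0.22, 0.0143; called in 9 of 11 such fits). AHR, the aryl hydrocarbon receptor, had a change of -0.67 ± 0.11 (0.00411), while NFE2L2, which encodes NRF2, stood at 28.9 FPKM in DMSO and 34.7 in CSC.

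At 48 hours of CSC 0 of the 40 tested genes of these 4 lists passed limma's test, and 5 had an unadjusted p under 0.05, as did 8.49% of all genes. From 48 hours to 2 weeks under CSC, GSTZ1 (0.82 ± 0.19, adjusted p = 0.0251), PTGES (0.60 ± 0.12, 0.0176), GCLC (0.83 ± 0.14, 0.0127), GSR (0.64 ± 0.13, 0.0173), ABCC1 (0.53 ± 0.15, 0.0413) and KEAP1 (0.45 ± 0.12, 0.0353) rose, 6 of the 40, a share near the 12.3% of all genes. Of these, only GCLC kept its call without CSC 2 weeks replicate 1 (0.0498), and 0 of the 6 kept it under quantile normalization.

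**Figure D5:**
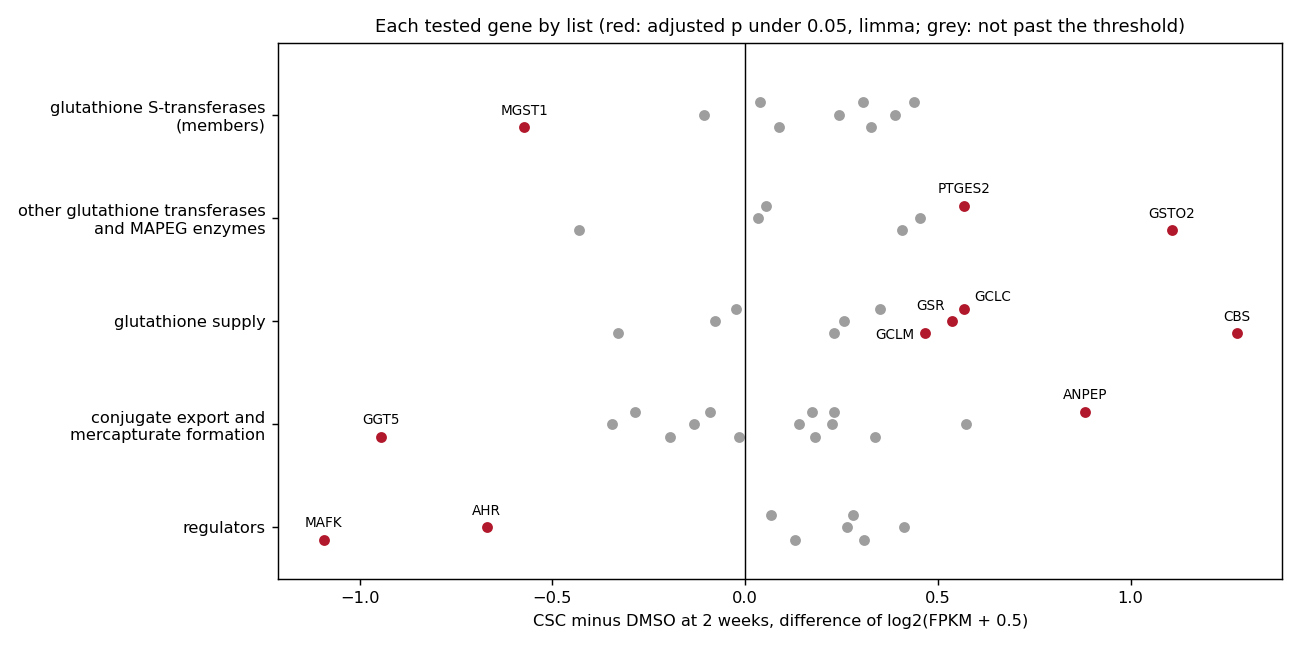
Change from DMSO to CSC at 2 weeks (x axis, difference of log2(FPKM + 0.5)) for every tested gene of the GST family and of 4 lists (rows); red points passed an adjusted p of 0.05 in limma and are named, grey points did not. MGST1 is red at -0.57 in the top row, and the 4 red points of glutathione supply lie between 0.47 and 1.28.

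Between 11742 and 12051 genes reached 1 FPKM per library, and 0 pairs of libraries held identical values. Library depth is unknown from FPKM, and the width of the deposited bounds placed 10 libraries within 1.37 times of the lowest relative depth and CSC 2 weeks replicate 2 at 2.66 times. Epithelial markers were present in all groups, and their summed FPKM, nearly all of it from KRT7, KRT8 and KRT18, differed between groups in the same directions as MGST1: 3019 to 3081 in DMSO 48 hours, 2129 to 2445 in CSC 48 hours, 4270 to 4915 in DMSO 2 weeks and 2935 to 4027 in CSC 2 weeks, with 6 of 6 markers above 1 FPKM. None of the 6 passed the test after CSC. At 48 hours the changes were 0.48 for EPCAM and 0.44 for KRT19, against -0.71 for CDH1, -0.65 for KRT8, -0.59 for KRT18 and -0.13 for KRT7. At 2 weeks KRT19 had a change of 0.09 and the others were negative: -0.58 for KRT8, -0.51 for KRT18, -0.41 for EPCAM, -0.38 for CDH1 and -0.29 for KRT7. Their part in the MGST1 result was not tested. Markers of alveolar type II cells, which the line is often used to model, were nearly absent, with 1 of 7 above 1 FPKM. Endothelial markers summed to at most 0.0491 FPKM. Leukocyte markers summed to 7.47 to 7.73 in DMSO 2 weeks and 8.01 to 11.02 in CSC 2 weeks, with 2 of 4 above 1 FPKM in any library, and fibroblast markers to 10.8 to 11.8 and 7.05 to 9.28, with 1 of 4.

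The genes whose log2 FPKM followed that of MGST1 most closely over the 11 libraries were NDFIP1 (Pearson r = 0.982), TSPAN14 (0.981) and MAGT1 (0.980), a description of values that share libraries and scaling. NDFIP1, an adaptor of ubiquitin ligases, stood at 26.0 ± 0.1 FPKM in DMSO 48 hours, 22.1 ± 2.4 in CSC 48 hours, 35.9 ± 2.7 in DMSO 2 weeks and 28.0 ± 4.2 in CSC 2 weeks (SD, n = 2, 3, 3 and 3), the order of groups that MGST1 also had with its lowest mean in CSC 48 hours and its highest in DMSO 2 weeks.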

How the data were processed

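RNA of A549 cells was sequenced in 11 libraries after ribosomal RNA depletion and aligned to hg19 with TopHat2 version 2.0.9, per the labels' protocols. CASAVA version 1.7.1a5 is also listed, per the submitters' processing notes. Which quantifier, annotation and strand setting were used is not given in the sources used here. The authors deposited FPKM values with a lower and an upper bound per gene and locus. No step worth a single read was found in the low FPKM, so read counts, depth and counting intervals are unknown.

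FPKM of symbols at more than 1 locus were summed (548 symbols) and 1 symbol with a failed estimate was left out. Genes that reached an FPKM of 1 in 2 or more libraries (12506) were compared as log2(FPKM + 0.5) with limma 3.58.1 in R 4.3.3 (moderated test with mean-variance trend, all 11 libraries in 1 fit of 4 groups, 7 residual degrees of freedom). P-values were adjusted by Benjamini-Hochberg over all genes tested and called under 0.05. Fold changes are on this scale, which understates changes of low genes. The procedure was tested on simulated data. Shares were compared by exact permutation in scipy 1.17.1. Coordinates are hg19 as deposited, compared with a GENCODE annotation of that build. Promoter windows are from RefSeq and were searched for 3 motifs.

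All 10 members are named. Of the 4 pathway lists, each called gene is named, and others were chosen after their values were seen. Members and lists were chosen with earlier results of these data known. Alternatives were 2 pseudocounts, 2 filters, 3 scalings, 2 variance models, the replicate number as a block, fits of only the groups compared and fits without each library. The share of MGST1 was added after seeing the data. Same-numbered libraries of different groups did not deviate together throughout (5 of 15 pairs had a correlation over 0.1, range -0.20 to 0.31). Pairs of replicate 1 libraries were all positive: 0.31 for CSC 48 hours with CSC 2 weeks, 0.19 and 0.22 for DMSO 2 weeks with CSC 48 hours and CSC 2 weeks. Some pairs of unlike number reached similar values. They were 0.28 for DMSO 2 weeks replicate 3 with CSC 2 weeks replicate 2 and 0.20 for DMSO 48 hours replicate 3 with DMSO 2 weeks replicate 2, among others. Because replicates 2 and 3 gave correlations of mixed sign and the labels do not explain the numbers, libraries of the same number were not taken as pairs.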

Additional observations from a re-analysis of the deposited data

How the results depend on the processing

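Most log2 changes of members kept their direction and their side of the threshold: 430 of 476 under the other settings and 454 of 495 in the fits without 1 library. Many of them could not turn sign. Leaving out a library outside a comparison does not alter its log2 change. Nor do the other filters, the variance models or a fit of only the groups compared. Many entries were also uncalled changes that stayed uncalled, so these counts do not measure stability. The change of MGST1 from DMSO to CSC at 2 weeks was negative in all fits and passed in 9 of 11 other settings. Without a filter (adjusted p = 0.0760) or with only the libraries compared (0.0574) the count of members called at 2 weeks went from 1 to 0, and in fits without 1 library it was 0 to 1. Under CSC the count of members called between the durations went from 5 to 0 with a common sum, 0 with quantile normalization, 0 with only the libraries compared, 1 with median of ratios and 2 without a filter, and was 0 to 5 in fits without 1 library. In the vehicle it went from 0 to 3 with only the libraries compared, where 409 of 12108 genes rose, and was 0 to 1 in fits without 1 library. Over all genes, the 376 higher and 300 lower after 2 weeks of CSC were 73 to 1310 and 132 to 534 in fits without 1 library, 184 and 229 without a filter, and 595 and 350 with the replicate block. Under CSC between the durations 1536 and 172 became 114 to 2452 and 30 to 175 without 1 library, 689 and 100 without a filter and 57 and 21 with only the libraries compared. Why the counts move was not tested, beyond the smaller number of libraries and the scalings themselves.

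The replicate block took replicate numbers 1 to 3 as a term, although the labels do not say what the numbers stand for. It gave 0, 1, 0, 0 and 6 members called in the 5 comparisons, and MGST1 at 2 weeks had a limma adjusted p of 0.0280. With the block, GSTO1 changed sign in the vehicle over time (-0.075) and at 48 hours of CSC (-0.089).

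The changes that turned sign were all uncalled, and of those given here the GSTA4 difference between durations had the widest range. With a common sum, median of ratios and quantile normalization GSTK1 at 2 weeks of CSC was -0.102, -0.056 and -0.051, MGST3 -0.053, -0.0070 and -0.014, and GSTO1 in the vehicle over time -0.056, -0.030 and -0.093. With quantile normalization GSTP1 at 2 weeks was -0.059, and the MGST3 difference between durations was -0.0042. With a common sum MGST3 at 48 hours was 0.025, and the differences between durations were -0.050 for GSTK1, -0.066 for GSTM4 and -0.078 for MGST3. In fits without 1 library the 48-hour changes ran from -0.18 to 0.0077 for GSTP1, -0.061 to 0.34 for GSTM3, -0.070 to 0.19 for GSTO1 and -0.11 to 0.080 for MGST3. The 2-week changes ran from -0.051 to 0.11 for GSTK1 and -0.041 to 0.17 for MGST3. The differences between durations ran from -0.60 to 0.25 for GSTA4, -0.028 to 0.37 for GSTM3, -0.070 to 0.19 for GSTM4 and -0.025 to 0.20 for MGST3, and GSTO1 in the vehicle over time ran from -0.012 to 0.14. Depth is unknown, and the number of libraries, 2 or 3 a group, limits the precision. No member's level had a group of 4 or more libraries in which a single outlying library could be tested.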
